A study of Mus musculus with 4 samples.

Results

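Messenger RNA was compared between mature (MII) mouse oocytes labelled Erk-/- and wild-type MII oocytes, which are 2 of the 4 libraries of the series. Each gene was described by log2((FPKM + 1)/(FPKM + 1)), labelled Erk-/- over wild type, where FPKM is the fragment number per length of transcript and per total of mapped fragments. The 6317 genes with at least 5 FPKM in 1 or both MII libraries were kept, of 23309 gene symbols in the files. All 4 libraries came from ICR mice, each a pool of 60 oocytes or embryos, and the donor females were 21 to 23 days of age. The groups are wild-type GV (germinal vesicle, fully grown and arrested before meiosis resumes), Erk-/- GV, wild-type MII (arrested at metaphase of the second meiotic division) and Erk-/- MII. The protocol text names injection of PMSG and hCG, which stimulate the follicle and start maturation, without saying which library received which. That text names Btg4-/- females where the genotype label says Erk-/-, and the design text describes a library as made from 1 oocyte. Which exons were removed, in which cells and by which Cre line is not given in the labels. There is 1 library per group, so no difference below has a replicate check and none is tested. A ratio of at least 2-fold on the stated scale is counted as higher or lower, as a rule of size.

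ERK kinases are the last tier of a cascade that the oocyte switches on as meiosis resumes, through the kinase encoded by Mos and the MEK kinases. The fully grown oocyte is transcriptionally almost silent and lives on mRNA stored during growth. During maturation some stored messages have their poly(A) tail lengthened and are translated, through a U-rich sequence near the 3' end called the cytoplasmic polyadenylation element (CPE), which CPEB1 binds. Other stored messages lose their tail to the CCR4-NOT deadenylase, which BTG4 recruits, and are destroyed. The title of the series asks how this destruction depends on ERK.

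The ERK1 gene Mapk3 lies on mm9 chromosome 7 (133903140 to 133909330). At GV it had 333 FPKM (wild type) and 52.3 (Erk-/-), and at MII 25.7 and 34.3 (labelled Erk-/-). It was thus lower in Erk-/- than in wild type at GV and not at MII. FPKM of a whole gene cannot show which exons are present, and this value alone does not check the label, so the library is called labelled Erk-/- throughout. All 12 oocyte markers reached 5 FPKM, with a summed FPKM of 21576 (wild type) and 20578 (labelled Erk-/-) at MII. Of 13 granulosa and cumulus markers, 10 were listed at 0 in wild-type MII and 8 in labelled Erk-/- MII (summed FPKM 24.9 and 14.6, against 28.9 and 29.4 at GV in the same genotype order). Only Cyp19a1 among them reached 5 FPKM at MII (21.8 in wild type and 10.8 in labelled Erk-/-). The 6 theca and stroma markers summed to at most 1.6 FPKM in every library. Among 5 blood and endothelial markers only Pecam1 was above 0 at MII (48.6 in wild type and 64.3 in labelled Erk-/-), and 4 of 5 2-cell embryo markers were listed at 0 in each MII library.

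Many stored maternal messages were higher in the library labelled Erk-/-, and few genes were lower. Of the 6317 genes, 2041 were higher by 2-fold or more (32.3%) and 528 lower (8.36%). The median log2 ratio was 0.26 and the middle 50% of genes ran from -0.39 to 1.41. FPKM is relative to each library's total, and fewer intact cells or less RNA per cell cannot be told apart in such libraries. Median-of-ratios scaling divides the labelled Erk-/- values by a common factor (log2 0.21), which moves low values less because of the added 1. It lowers the median to 0.06, and ratios below are read against this shift. Counts of higher and lower genes in a list are to be read beside the 32.3% and 8.36%. The deposited bounds, which cover uncertainty within a library, were usable for 5380 genes. They did not overlap in 2733 genes higher (50.8%) and 1596 lower (29.7%), including all 1804 genes of this set that were 2-fold higher and 467 of 468 that were 2-fold lower. The libraries were of similar depth as read from the bounds (0.981 times in labelled Erk-/-), while 5882 genes reached 5 FPKM in labelled Erk-/- and 4742 in wild type. An exact 0 can be a failed estimate. Of the 6317 genes, 334 were listed at 0 in wild type and 59 in labelled Erk-/-, and no fold is given against them. A log2 ratio of such a gene is set by the added 1.

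**Figure D1:**
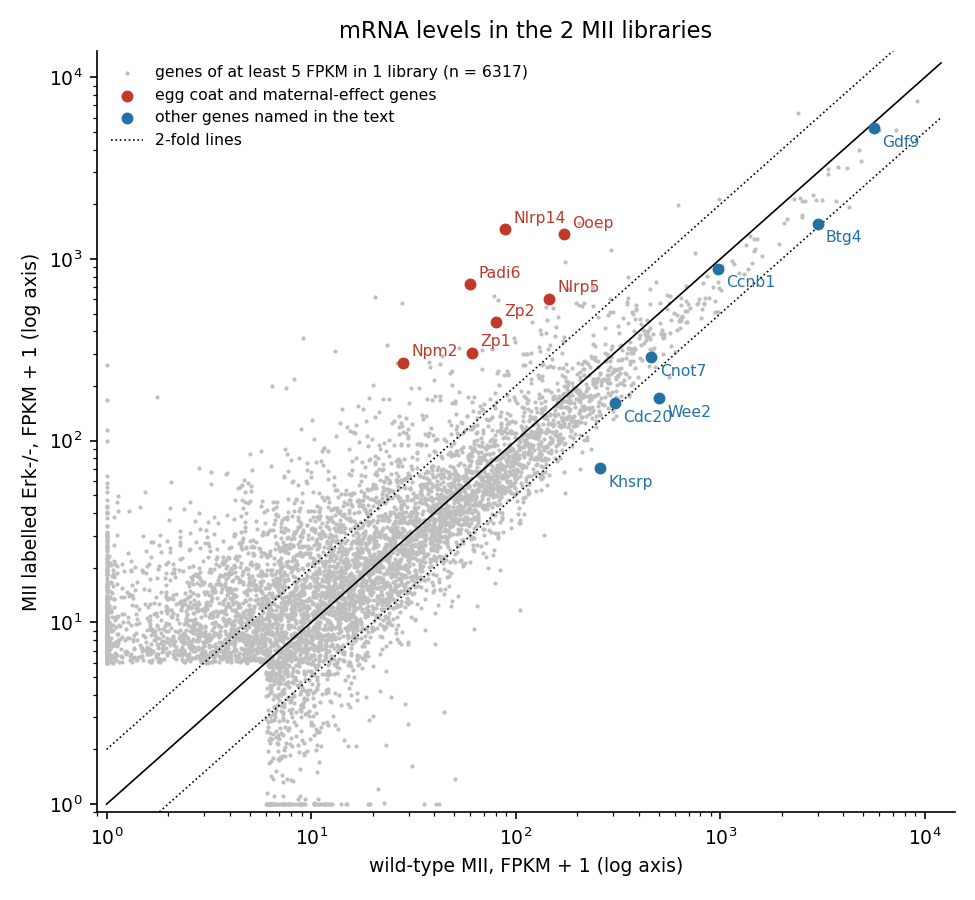
Each point is a gene of at least 5 FPKM in 1 or both MII libraries (n = 6317), with FPKM + 1 in wild-type MII on the x axis and in the MII library labelled Erk-/- on the y axis, both on log axes. The 7 maternal-effect and egg coat genes marked in red lie above the upper 2-fold line, Wee2 and Khsrp below the lower one, and Gdf9 near equality.

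Components of the subcortical maternal complex, a protein assembly that the egg stores and the early embryo needs, were among the groups that differed most. All 8 members found in the files passed the filter, and 5 were higher and none lower (median 2.50, against 0.26 over all genes). Padi6, needed for the cytoplasmic lattices of the egg (chromosome 4, 140283270 to 140298558), had 4264 FPKM (wild type) and 2641 (Erk-/-) at GV. At MII it had 58.7 (wild type, bounds 52.0 to 59.7) and 727 (labelled Erk-/-). Khdc3 (chromosome 9, 72950205 to 72952250) had 495 and 458 FPKM at GV and 28.0 (23.2 to 29.5) and 277 at MII. Ooep (chromosome 9, 78224710 to 78226395) had 1242 and 1143 at GV and 171 and 1370 at MII. In all 3 genes the wild-type MII library is the low one, and in Ooep the labelled Erk-/- MII level is above both GV levels. Tle6 (chromosome 10, 81053650 to 81063645) was 7.81-fold and Nlrp5 (chromosome 7, 24170916 to 24226940) 4.16-fold higher. The complex did not move as a whole. Nlrp2 had 24.4 FPKM in wild-type MII (21.9 to 26.9) and 31.1 in labelled Erk-/- (28.1 to 33.0), Nlrp4f 119 and 133, and Zbed3 5963 and 5135, ratios that are all below 2-fold.

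Other maternal-effect genes, whose products are laid down in the egg for the embryo, had 11 of 20 higher and none lower (median 1.11), with 3 more in the files under the filter. Nlrp14 (chromosome 7, 114310504 to 114341617) had 2427 FPKM (wild type) and 1462 (Erk-/-) at GV, and 87.6 (80.6 to 89.3) and 1461 at MII. Npm2, a histone chaperone that decondenses sperm chromatin (chromosome 14, 71047109 to 71052891), had 1372 and 1209 FPKM at GV and 27.0 (20.1 to 27.8) and 268 at MII. So the labelled Erk-/- MII level of Nlrp14 equalled that of Erk-/- GV, and that of Npm2 lay between the GV levels and the wild-type MII level. Higher by 2- to 4-fold were Uchl1, a deubiquitinase (622 FPKM in wild-type MII and 1980 in labelled Erk-/-), Rnf114, a ubiquitin ligase (238 and 547), and Zfp57, which protects imprints (131 and 313). Other abundant members lay within 2-fold. Dppa3, which guards maternal DNA methylation, had 1391 and 1339 FPKM, Spin1, a meiotic chromatin reader, 3369 and 2921, and the DNA oxidase gene Tet3 395 and 224, which is beyond 2-fold lower under median-of-ratios scaling.

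Of the egg coat and cortical granule list, 4 of 8 genes were higher and none lower (median 1.38). The zona pellucida glycoprotein genes form the coat that sperm bind. Zp2 had 78.7 FPKM in wild-type MII (69.7 to 78.9) and 449 in labelled Erk-/- MII, Zp1 60.0 (52.1 to 61.2) and 305, and Zp3 151 and 533. All 3 were well under their GV levels in both MII libraries, the lowest GV value being 1103 FPKM for Zp1 in Erk-/-. Astl, the cortical granule protease that cleaves ZP2 after fertilization, had 505 and 571 FPKM, and Oosp1, an oocyte-secreted protein gene, 4760 and 3996. Secreted growth factors likewise split. Bmp15 (chromosome X, 5891224 to 5897841) had 1189 FPKM (wild type) and 901 (Erk-/-) at GV, and 293 and 1117 at MII. Its partner Gdf9 (chromosome 11, 53246788 to 53251404) had 4139 and 3611 at GV and 5635 and 5255 at MII. Fgf8, which acts on the cumulus, had 1.63 FPKM in wild-type MII (0.773 to 2.49) and 17.1 in labelled Erk-/- MII (14.3 to 19.8), and 4 of 6 genes of that list were higher and none lower.

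**Figure D2:**
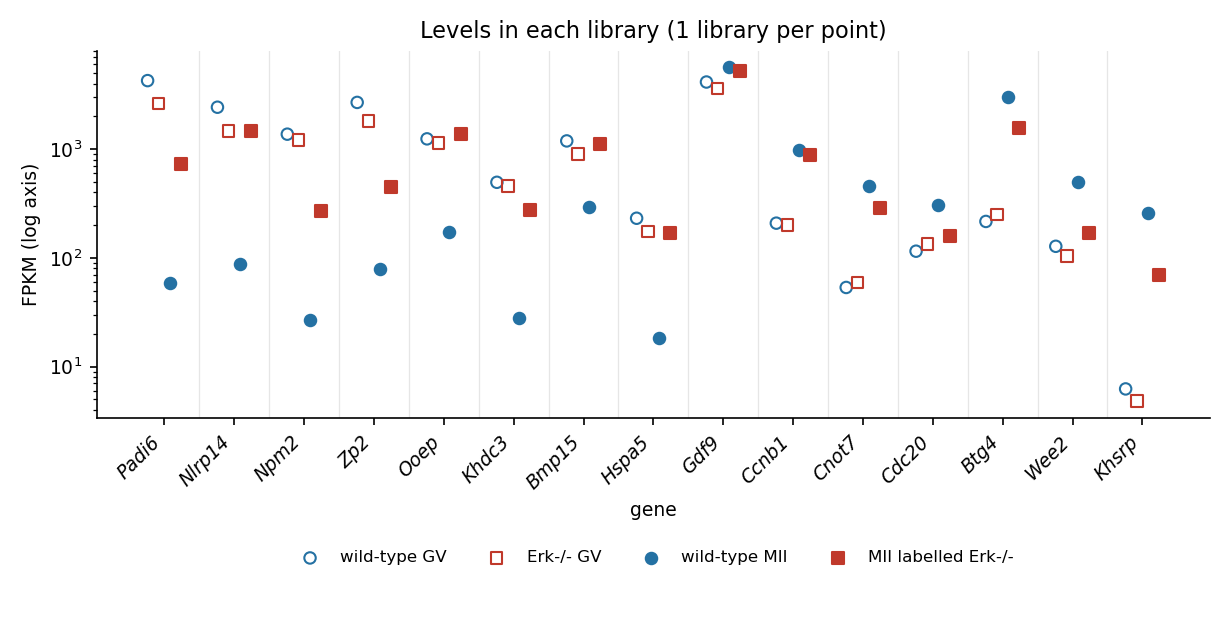
FPKM (log axis) of 15 genes in each of the 4 libraries, 1 point per library, with wild type as circles, Erk-/- as squares, GV open and MII filled. From Padi6 to Hspa5 the wild-type MII point is the lowest of the 4, and from Cnot7 to Khsrp the wild-type MII point is the highest.

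Messages whose translation rises during maturation behaved differently. All 16 genes of this list passed the filter, and 1 was lower and none higher (median -0.45). Btg4, the adaptor that brings CCR4-NOT to maternal mRNA (chromosome 9, 50924106 to 50927805), had 216 FPKM (wild type) and 250 (Erk-/-) at GV, and 2987 and 1565 at MII. Wee2, a kinase that restrains CDK1 (chromosome 6, 40392862 to 40416814), had 128 and 104 FPKM at GV and 500 and 171 at MII. Wee2 was the member beyond 2-fold without scaling, 2.93-fold lower. Under median-of-ratios scaling Btg4 (log2 ratio -1.14) and Cdc20 (-1.12) were beyond 2-fold lower as well. In Btg4 and Wee2 the labelled Erk-/- MII value lies between the GV values and wild-type MII. Cdc20, the activator of the anaphase-promoting complex, had 304 FPKM in wild-type MII (296 to 317) and 160 in labelled Erk-/- (153 to 169), and Orc6, of the origin recognition complex, 252 (243 to 263) and 154 (147 to 163). Cyclin B1 gene Ccnb1 (973 and 884) and the protease gene Plat (3374 and 3123) were nearly equal. Dazl, which promotes translation in the oocyte, went the other way with 50.3 (45.4 to 51.4) and 84.7 (77.2 to 85.8).

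Around ERK itself, 9 of 20 genes of the MAPK cascade list passed the filter, with a median of -0.38 and none higher by 2-fold. Mos had 919 FPKM in wild-type MII and 704 in labelled Erk-/-, and Map2k1, which encodes MEK1, 359 and 262. The phosphatase gene Dusp7 had 236 and 285, and Dusp1, whose protein also removes phosphate from ERK, 138 and 110.

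Genes of the deadenylation machinery differed in direction. Of 13 CCR4-NOT and BTG genes, 3 were higher (23.1%, against 32.3% over all genes) and none lower (median -0.13). The scaffold gene Cnot1 had 2.68 FPKM in wild-type MII (2.33 to 3.04) and 14.3 in labelled Erk-/- (13.5 to 15.1), and the BTG/TOB member Tob2 9.09 (7.99 to 10.1) and 31.4 (28.7 to 33.3). For the catalytic subunit gene Cnot7 the MII values were 459 (452 to 475) and 286 (281 to 298), and for Cnot6l, another catalytic subunit, they were 226 (219 to 236) and 149 (143 to 156). The bounds were apart in both directions within this list, though Cnot7 and Cnot6l were lower by less than 2-fold. Khsrp, which brings AU-rich messages to decay enzymes (chromosome 17, 57160472 to 57170930), had 6.24 FPKM (wild type) and 4.81 (Erk-/-) at GV, and 256 and 69.9 (64.9 to 71.9) at MII.

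Of the genes that store and mask mRNA, 7 of 15 were higher, 2 lower and 6 within 2-fold (median 0.72). Eif4enif1 had 39.1 FPKM in wild-type MII (36.6 to 41.6) and 215 in labelled Erk-/- (211 to 224). Its partner Eif4e1b, an oocyte form of the cap-binding protein, had 140 (131 to 149) and 546 (528 to 568), and Zar1, a masking factor needed by the zygote, 981 and 2144. Rbpms2, an RNA-binding protein gene, had 42.6 (36.7 to 44.9) and 291. Against these, the cold-shock protein gene Ybx1 was lower, with 48.0 (42.1 to 49.4) and 12.2 (10.1 to 14.2). In the cytoplasmic polyadenylation list 5 of 19 were higher (26.3%, against 32.3% over all genes) and none lower. Its median of 0.11 turned to -0.08 under median-of-ratios scaling. Cpeb1 itself had 21.6 FPKM (19.8 to 23.4) and 73.6 (69.9 to 77.6), and Pabpc1l, the egg's embryonic poly(A)-binding protein, 10.6 (8.92 to 12.1) and 89.8 (81.1 to 90.2). Papd4, a cytoplasmic poly(A) polymerase gene, had 98.0 and 58.4.

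Since these groups differ in how their messages are known to be handled at the 3' end, the annotated 3' ends were read for the CPE. The search, chosen after the files had been seen, took TTTTAT or TTTTAAT on the transcript strand in the last 100 bases of the 3' untranslated region of 1 transcript per gene (GENCODE M21, GRCm38). Each sequence below is 30 bases long, 5' to 3'. In the first 4, from abundant messages and the translated message lower by over 2-fold (Wee2), capitals mark the CPE. In the last 4, of maternal-effect genes with no such match in their last 100 bases, capitals mark the polyadenylation signal.
Btg4: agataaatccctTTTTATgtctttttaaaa
Wee2: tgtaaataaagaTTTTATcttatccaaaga
Gdf9: agagtgctgtggTTTTATgtgacggaagaa
Plat: agtatatttataTTTTAATctattttagtt
Padi6: tgccatagagccAATAAAgcatggtattct
Nlrp5: tagcaagaatgaAATAAAcacagcatttag
Npm2: gcctagggccacAATAAAatttgcatgatc
Tle6: cgagttgcgtgtAATAAAacaattgaaatg
On GRCm38 they lie at chr9:51119797-51119826 (Btg4, plus strand), chr6:40466784-40466813 (Wee2, plus), chr11:53437854-53437883 (Gdf9, plus), chr8:22782744-22782773 (Plat, plus), chr4:140727361-140727390 (Padi6, minus), chr7:23441887-23441916 (Nlrp5, plus), chr14:70647304-70647333 (Npm2, minus) and chr10:81590907-81590936 (Tle6, minus), all in the 3' untranslated region. The CPE begins 67 bases from the annotated end in Btg4, 18 in Wee2, 39 in Gdf9 and 89 in Plat. These sequences are examples, and the CPE did not separate the lists. It was found in 2 of 8 genes of the subcortical maternal complex and 3 of 19 other maternal-effect genes. Of messages translated during maturation, 5 of 15 held it, against 23.7% of all genes searched. The 10 translated messages without it had a median log2 ratio of -0.25, and the 5 with it -0.70.

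Genes with a CPE in this window were near or below equality at MII, and genes without one carried most of the higher levels. A 3' untranslated region of at least 100 bases was found for 5529 of the 6317 genes, and 1312 of them held a CPE (23.7%, against 17.9% of 19306 annotated genes). With a CPE the median log2 ratio was -0.19, with 14.1% higher and 11.8% lower. Without one (4217 genes) it was 0.45, with 36.6% higher and 6.38% lower. Read the other way, 10.7% of the 1728 higher genes, 28.8% of the 3377 genes within 2-fold and 36.6% of the 424 lower genes held a CPE. The difference of the medians was -0.64 at MII. Between the GV libraries, which share no library with the MII comparison, it was 0.08, and the medians were -0.02 with a CPE and -0.08 without. The labels do not state whether the mRNA was selected by its tail, so a message with a longer poly(A) tail and a more abundant one cannot be told apart here.

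The position and number of the elements went with the ratio. Neither was compared within classes of AT content or of 3' untranslated region length. The distance classes below differ in that length (medians from 619.5 to 1628 bases). With 1 copy the median was -0.15 (n = 1095) and with 2 or more copies -0.35 (n = 217), where 6.45% were higher and 16.1% lower. When genes were ordered by the CPE nearest their 3' end, the median was -0.28 at 1 to 25 bases (n = 270), -0.22 at 26 to 50 (464), -0.12 at 51 to 75 (333) and -0.15 at 76 to 100 (245). It was -0.03 at 101 to 150 bases (323), 0.08 at 151 to 300 (596), 0.28 at 301 to 1000 (1066) and 0.78 beyond 1000 or with none (2232). The median for 76 to 100 bases lies below that for 51 to 75, so the order holds from the nearest class to the farthest with that exception. The GV medians of the same classes lay between -0.14 and 0.02.

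**Figure D3:**
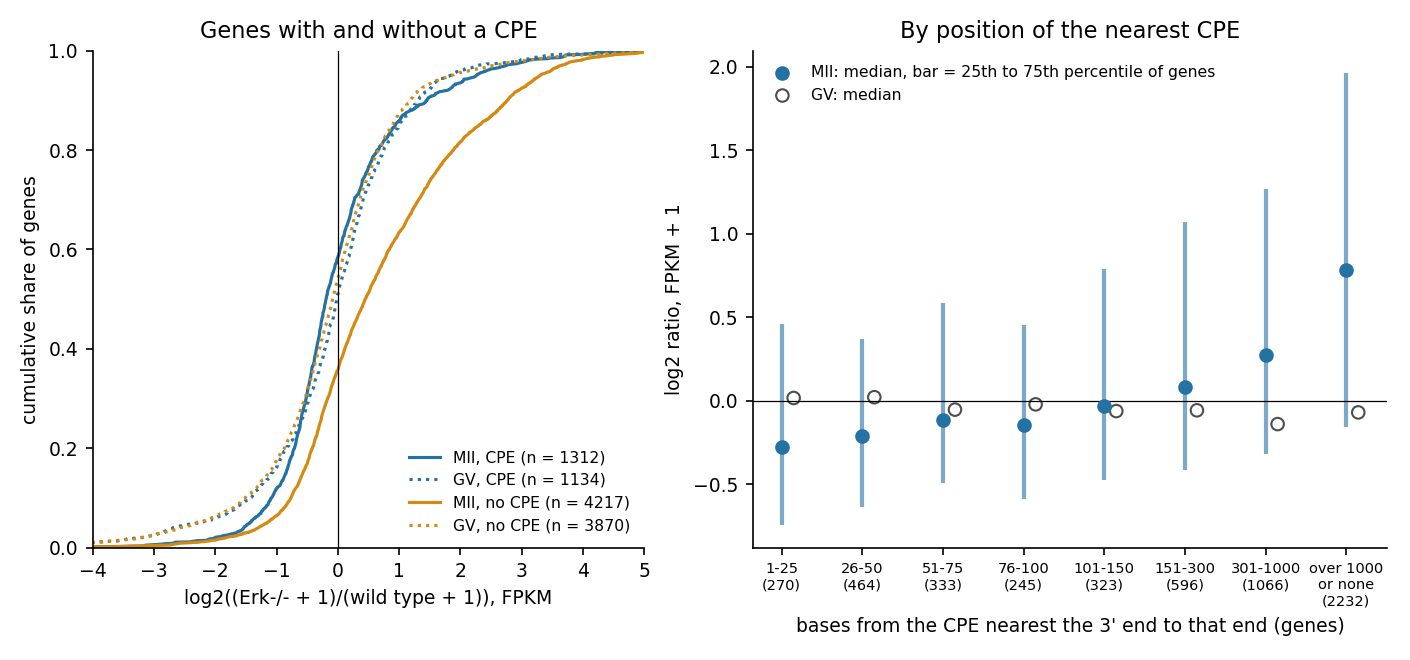
Left, cumulative share of genes by log2 ratio (labelled Erk-/- over wild type) at MII (solid) and GV (dotted), with a CPE in the last 100 bases (blue) or without (orange); the MII curve without a CPE lies to the right of the other curves. Right, median log2 ratio at MII (filled, bars from the 25th to the 75th percentile of genes) and at GV (open) by distance of the nearest CPE from the 3' end, with gene numbers in brackets; the MII medians run from -0.28 to 0.78.

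A CPE is made of A and T, so genes that hold one also have AT-rich ends, and the comparison was repeated within classes. Where AT made up 55% or less of the last 100 bases, medians were -0.05 with a CPE and 1.02 without. At 56 to 65% they were -0.02 and 0.62, at 66 to 75% -0.19 and 0.19, and at 76% or more -0.30 and 0.01. The ratio without a CPE thus fell as AT content rose, and in each class the genes with a CPE were lower. By length of the 3' untranslated region, medians with and without a CPE were -0.22 and 0.79 at 100 to 300 bases, -0.24 and 0.61 at 301 to 700, -0.24 and 0.52 at 701 to 1500, and -0.07 and 0.21 above 1500. By mean level in the GV libraries, they were -0.25 and 0.00 under 10 FPKM, and -0.16 and 0.88 at 100 FPKM or more. The difference was smallest among the rarest messages and the longest 3' untranslated regions.

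**Figure D4:**
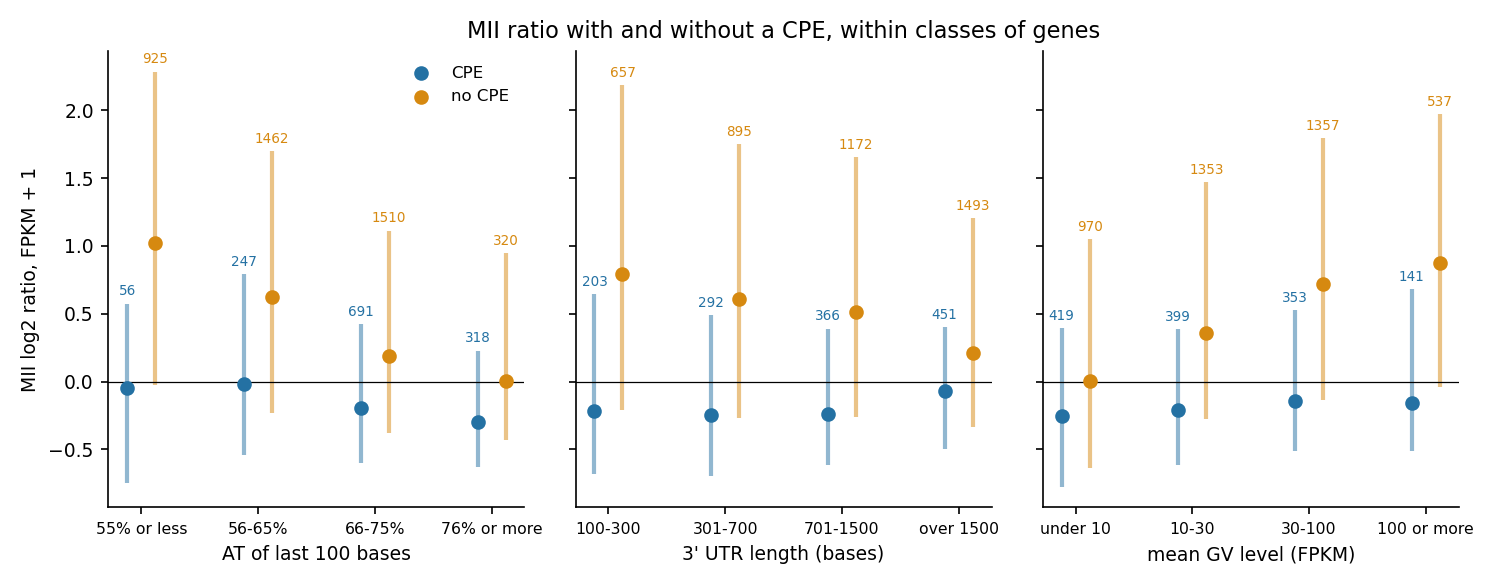
Median MII log2 ratio with a CPE (blue) and without (orange) within classes of AT content of the last 100 bases, length of the 3' untranslated region and mean GV level, with bars from the 25th to the 75th percentile of genes and gene numbers above them. In each of the 12 classes the CPE median is the lower, by the least for GV levels under 10 FPKM.

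When all 1979 hexamers present in at least 100 genes were ranked by the same difference of medians, the lowest were TTTTTA (-0.64), TTTTAA (-0.62), TTTTAT (-0.58) and ATTTTA (-0.50). Of the 10 lowest, 9 consisted of A and T only, GTTTTA (-0.47) being the exception. Over all 64 A- and T-only hexamers, these included, the median was -0.21. The polyadenylation signal AATAAA ranked 83rd (-0.25) and TATTTA, found in AU-rich decay elements, 157th (-0.21). The highest were CAGCCC (0.95) and CTGGGG (0.86). The longer AU-rich element TATTTAT gave medians of 0.10 with it (n = 273) and 0.25 without, and the Pumilio motif TGTANATA 0.18 (n = 311) and 0.25. Hexamers overlap one another and share genes, so these ranks are a description. The messages of Mos and Ccnb1, long studied for their CPEs, had no match in this window, which says only that these letters are absent from the last 100 bases of the transcript model used.

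The shift could be seen in the make-up of the libraries. Genes with a CPE held 20.7% (wild type) and 21.6% (Erk-/-) of the FPKM of all genes with a readable 3' end at GV. At MII they held 44.2% (wild type) and 35.0% (labelled Erk-/-). Of the 10 most abundant genes of each MII library, 8 were shared, led in both by the oocyte linker histone gene H1foo (9139 FPKM in wild type and 7430 in labelled Erk-/-). Bcl2l10, an anti-apoptotic BCL2 relative, had 7221 and 5103 FPKM. Ldhb, a lactate dehydrogenase subunit, had 2389 FPKM in wild-type MII and 6356 in labelled Erk-/- and stood at 6619 (wild type) and 4372 (Erk-/-) at GV. By difference in FPKM rather than ratio, the 20 genes with the largest gain in labelled Erk-/- (Ldhb, Tle6 and Nlrp14 leading) included 17 with a readable 3' end, and none of these held a CPE. Among the 20 with the largest loss, 13 of 18 held one, including H1foo, Bcl2l10, Btg4 and the checkpoint kinase gene Bub1b (1305 and 822 FPKM). These 40 genes were picked by the same values, so the shares describe them only. Over all genes with a readable 3' end 23.7% held a CPE. A difference in FPKM picks abundant genes, also where the ratio is small. The 20 with the largest loss kept from 45.3% to 86.1% of the wild-type MII level.

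Several lists of core cell functions, whose genes every cell expresses, held larger shares of higher genes than the 32.3% over all genes. Cytosolic ribosomal proteins had 45 of 78 higher and 6 lower (median 1.39), respiratory complex I 21 of 33 and none lower (1.47), complexes II to V 18 of 39 and 3 lower (0.95), and the proteasome 13 of 26 and 1 lower (0.99). For comparison, 46.0% of transcripts under 1000 bases were higher, and 42.8% of genes at 100 to 1000 FPKM in the GV mean. The part of length and GV level in these lists was not tested. Other core lists were near or below the 32.3% over all genes. Splicing and hnRNP genes had 7 of 57 higher and 5 lower (median -0.27), and nonsense-mediated decay 2 of 11 and 1 lower (-0.17). Nuclear pore and transport had 10 of 40 higher and none lower (0.04), and tRNA synthetases 3 of 12 and none lower (0.49). Glycolysis and TCA cycle genes had 7 of 21 higher and 2 lower (0.22). Rps29, of the small ribosomal subunit, had 867 FPKM (wild type) and 665 (Erk-/-) at GV, and 8.09 (2.94 to 8.14) and 366 at MII. Atp5e, a subunit of ATP synthase, had 1456 and 1245 at GV and 27.0 and 574 at MII. Ndufa2, of complex I, had 168 and 55.1 at GV, and 7.91 (4.94 to 10.6) and 115 (103 to 127) at MII. In each of the 3 genes wild-type MII is the lowest library. Several had almost no signal in wild-type MII, such as Psmb5, a catalytic subunit of the proteasome, with 0.126 (0 to 0.631) against 44.9 (39.7 to 50.0), and Cox7c, of complex IV, listed at 0 against 167. Many of these genes have processed pseudogenes, and how reads that map to several places were counted is not given in the sources used here. Mitochondrial ribosomal proteins had 23 of 52 higher and 4 lower (median 0.76), and their GV median was -0.57. Of the 52, 10 were listed at 0 in wild-type MII, and without them the MII median was 0.37. Mrpl54 was an exception, at 20.2 FPKM in wild-type MII and 0.217 in labelled Erk-/- (0 to 0.461). No gene encoded in mitochondria is analysed here.

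Chaperones had 15 of 33 higher and none lower (median 0.96), and 3.12% of those with a readable 3' end held a CPE. Hspa5, the endoplasmic reticulum HSP70, had 231 FPKM (wild type) and 176 (Erk-/-) at GV, and 18.1 (16.4 to 19.9) and 171 (166 to 179) at MII. Its lumenal partner Hsp90b1 had 203 and 174 at GV, and 4.09 (3.26 to 4.89) and 55.1 (49.6 to 56.2) at MII. For the lectin chaperone gene Calr the MII values were 21.6 (18.1 to 23.1) and 168. The labelled Erk-/- level of Hspa5 was close to its GV levels, and those of Hsp90b1 and Calr lay below theirs (448 and 425 for Calr). Cytoskeletal genes had 17 of 35 higher and 1 lower (median 0.78). Within that list the 6 genes with a CPE had a median of -0.25 and the 27 without 1.27. Tubb5 had 1.39 FPKM (0.967 to 1.83) and 40.9 (36.4 to 42.7), and Actb 4.42 (3.31 to 5.51) and 31.7 (26.9 to 33.0). Tubb2b went against the pattern: it holds a CPE and was 14.3-fold higher.

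Of the membrane traffic and transport lists, autophagy and lysosome lay above the 32.3% of all genes that were higher, and the other 3 near it. The secretory pathway list had 17 of 50 higher and none lower (median 0.67), Rab GTPases 8 of 25 and none lower (0.68), autophagy and lysosome 17 of 38 and 2 lower (0.84) and solute carriers 38 of 105 and 9 lower (0.42). Sec24c, of the coat that carries cargo out of the endoplasmic reticulum, had 39.5 FPKM (wild type) and 36.5 (Erk-/-) at GV, and 2.89 and 37.9 at MII. The zinc transporter gene Slc39a6 had 100 and 76 at GV, and 1.71 and 34.9 at MII. Within lists the CPE went with the ratio in solute carriers (median -0.10 for 28 genes with it, 0.56 for 73 without) and in autophagy and lysosome (-0.14 for 5, 1.14 for 33). It did not in spindle genes (0.11 for 9, -0.13 for 29) or mitochondrial ribosomal proteins (0.74 for 7, 0.78 for 41). Nor did it in histone methylation genes (0.10 for 11, 0.02 for 15) or F-box proteins (0.07 for 5, -0.14 for 31).

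Lists of the meiotic divisions had medians near or below 0, and smaller shares of higher genes than the 32.3% over all genes. That of the anaphase-promoting complex was close to it and that of spindle genes well under it. Spindle and kinesin genes had 5 of 41 higher and none lower (median -0.07), the anaphase-promoting complex and checkpoint 8 of 28 and none lower (-0.03), cohesin and shugoshin 1 of 12 higher and 2 lower (-0.36) and CDK1 and cyclins 4 of 17 higher and 1 lower (0.02, and negative under median-of-ratios scaling). The exceptions were large. Cdk1, the kinase of M phase (chromosome 10, 68799383 to 68815660), had 90.3 FPKM (wild type) and 31.5 (Erk-/-) at GV, and 0.0328 (0 to 0.0925) and 11.4 (9.81 to 12.7) at MII. Cdc25b, the phosphatase that activates CDK1 when meiosis resumes, had 6.13 (5.23 to 7.03) and 31.0 (28.7 to 33.3), and Gpr3, the receptor that holds the oocyte in arrest, 11.1 (9.17 to 12.7) and 60.3 (53.1 to 61.7). Haus8, of the augmin complex that branches spindle microtubules, had 6.72 (5.43 to 8.02) and 67.2 (62.5 to 71.9). Esco2, a cohesin acetyltransferase, was lower, with 52.5 (47.4 to 53.7) and 20.8 (18.3 to 22.4).

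**Figure D5:**
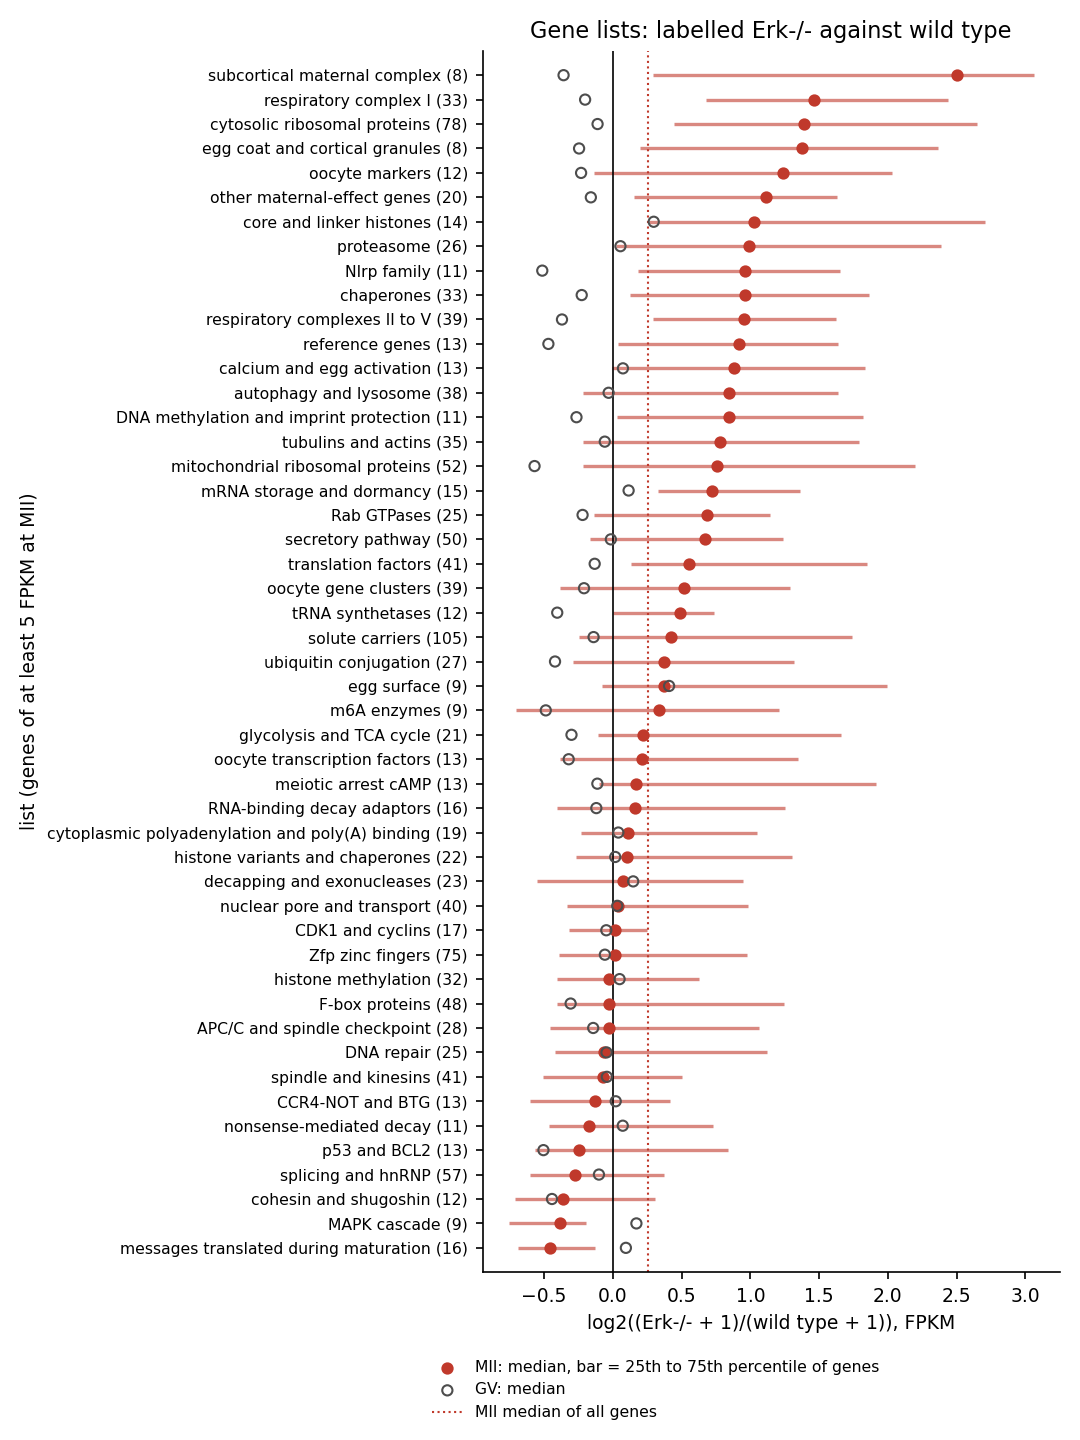
Median log2 ratio (labelled Erk-/- over wild type) of each gene list with at least 8 genes past the filter, at MII (red, bars from the 25th to the 75th percentile of genes) and at GV (open circles), with gene numbers in brackets. At MII the list medians run from -0.45 (messages translated during maturation) to 2.50 (subcortical maternal complex), while most GV medians lie left of or near 0.

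At the ends of the distribution stood messages that were nearly absent from 1 library. The highest ratios of genes above 0 in both MII libraries included Rpl38, of the large ribosomal subunit, with 0.768 FPKM in wild type (0 to 4.05) and 172 in labelled Erk-/- (148 to 196). Chchd2, a mitochondrial protein gene, had 5.44 (3.39 to 7.27) and 198, and Vamp8, a membrane fusion protein gene, 0.144 (0 to 0.336) and 48.9. The oocyte cluster gene E330017A01Rik had 2302 FPKM (wild type) and 1731 (Erk-/-) at GV, and 19.6 and 618 at MII. Listed at 0 in wild-type MII and highest in labelled Erk-/- were Cox7c, Uqcrq of complex III (114 FPKM), the copper chaperone gene Cox17 (99.2), Rimkla (62.8) and Pdcd5 (57.3), each of which had over 100 FPKM in wild-type GV. Among the lowest ratios, Helq, a DNA repair helicase, was the most abundant, with 24.7 and 44.4 FPKM at GV and 104 (97.1 to 105) and 10.7 (9.42 to 12.0) at MII. Pinx1, a telomerase inhibitor, had 30.1 (24.1 to 30.6) and 0.612, and Arl8a, a lysosomal GTPase, 28.7 (23.9 to 30.4) and 1.77 (1.11 to 2.38). Over all 6317 genes, 57 had under 0.2 FPKM in wild type and 20 or more in labelled Erk-/-, and 4 the reverse.

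The GV libraries, compared by the same rule, gave another balance. Of 8240 genes, 1487 were higher (18.0%) and 1837 lower (22.3%) in Erk-/- GV, with a median of -0.08 and the middle 50% from -0.87 to 0.66. Among 5679 genes of at least 5 FPKM in both comparisons, 1896 were higher at MII, and of these 70.0% were within 2-fold at GV, 12.0% higher and 18.0% lower. Of the 390 lower at MII, 49.0% were within 2-fold at GV, 24.9% higher and 26.2% lower. Over all 5679 genes 68.8% were within 2-fold at GV, 13.7% higher and 17.5% lower. The shares of the genes higher at MII were near these, while among the genes lower at MII both the higher and the lower share were larger. The subcortical maternal complex had a median of -0.36 at GV with none of 8 genes beyond 2-fold, and messages translated during maturation 0.10.

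The MII ratio went with how abundant a message had been at GV. The median was -0.32 for genes under 1 FPKM in the GV mean (n = 264), -0.05 at 1 to 10 FPKM, 0.20 at 10 to 30, 0.50 at 30 to 100, 0.71 at 100 to 1000 and 1.67 at 1000 or more, where 21 of 33 genes were higher and none lower. It also went with transcript length, from 0.78 under 1000 bases (n = 465) to 0.46, 0.26, 0.22 and 0.07 for 1000 to 1999, 2000 to 2999, 3000 to 4999 and 5000 bases or more. Of transcripts under 1000 bases, 46.0% were higher and 14.6% were listed at 0 in wild-type MII. Without genes listed at 0 in either MII library the median of these short transcripts was 0.60. The part of transcript length and GV level in the gene group results was not tested.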

How the data were processed

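mRNA of 60 pooled oocytes per library was sequenced in pairs of reads, per the labels' protocols. Whether mRNA was purified by its poly(A) tail is not given in the labels. CASAVA 1.8, TopHat and mm9 were used, per the submitters' processing notes. The authors deposited FPKM with a lower and an upper bound per gene, per the file headers. For the program, annotation and confidence level behind these FPKM, the sources used here give nothing. FPKM holds no counts, so depth is unknown, and only a relative depth was read from the bounds (2399 genes). From their middle to either bound was a median 8.15% (wild-type MII) and 8.69% (labelled Erk-/- MII) of the value.

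Of 23813 rows, the 504 extra rows of 260 symbols were summed per symbol. Bounds were not used for such symbols or where the value lay outside them (937 genes at MII). Starts count from 0 in the files (9268 matches to annotation, against 567 for counting from 1), so 1 was added. The pseudocount of 1 makes changes of low genes look smaller, and the filter was 5 FPKM. Gene models came from GENCODE M21 (GRCm38), matched by symbol for 5825 genes, with the principal transcript, then the longest coding sequence. CPE results rest on that 1 model per gene. Sequences are of GRCm38, and gene positions are mm9 as deposited. Python 3.11.15, pandas 2.3.3 and numpy 2.4.6 were used, and the script was tested on simulated data.

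Members and all 56 gene lists were chosen with earlier results of these data known. The rule for named genes took symbols on 1 row, above 0 in both MII libraries and at 10 FPKM or more in 1: the 12 highest and 12 lowest ratios, up to 3 genes per list, and 19 fixed genes. It added 5 genes each way listed at 0. Further list members and the most abundant genes were named after their values were seen. Some genes are not reported here, though list counts and medians include every member. With 1 library per group no test was made. Alternatives varied the pseudocount, filter, scaling, fold rule, treatment of zeros and CPE search.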

Additional observations from a re-analysis of the deposited data

Results flagged for a closer look

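Among the genes picked by the naming rule, 21 were at least 2-fold apart at MII and at least 2-fold apart the opposite way at GV, an untested difference between single libraries. For comparison, of the 5679 genes measured at both stages 341 were higher at MII and lower at GV (18.0% of the 1896 higher at MII). Lower at MII and higher at GV were 97 (24.9% of the 390 lower at MII). The sets are not alike, since picked genes were partly chosen by the size of their MII ratio, up to 3 from each list. The 5679 also needed 5 FPKM in a GV library, which Hist1h1a (0 and 3.67) and Hist1h2bj (0 and 3.24) did not reach. The log2 ratios of labelled Erk-/- over wild type are given with MII first.

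The 15 that were higher at MII and lower at GV included 6 genes of the respiratory chain and ribosomes, which are picked genes and not their lists: Cox7b (3.68 and -1.56), Cox7c (7.39 and -1.06), Ndufa2 (3.70 and -1.59), Ndufs6 (3.32 and -1.81), Mrpl4 (2.56 and -1.64) and Rpl38 (6.61 and -3.16).

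The same direction was seen for the M-phase kinase Cdk1 (3.59 and -1.49), the translation initiation factor Eif2s3x (2.05 and -1.0001), the autophagy gene Map1lc3a (1.58 and -1.06), the m6A writer subunit Mettl14 (1.21 and -1.40) and the cyclophilin gene Ppia (1.804 and -1.61). It was also seen for Pdcd5 (5.87 and -1.07), Rimkla (5.995 and -1.03), Slc15a4 (3.64 and -1.33) and the DNA damage sensor Xpc (2.27 and -1.05).

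Lower at MII and higher at GV were the histone genes Hist1h1a (-2.98 and 2.22) and Hist1h2bj (-5.21 and 2.09), the metabolic enzyme gene Idh1 (-3.45 and 1.56), and 4930599N23Rik (-3.01 and 5.21), Mzt2 (-2.87 and 3.24) and Tmsb15b2 (-4.24 and 3.48). Of these, 4930599N23Rik, Hist1h1a, Hist1h2bj and Tmsb15b2 were listed at 0 in wild-type GV. Cox7c, Pdcd5 and Rimkla were listed at 0 in wild-type MII, and Tmsb15b2 in labelled Erk-/- MII. Ratios against such a 0 are set by the added 1 and are no folds.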

How the results depend on the processing

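Depth limits low genes, and no spread between oocyte batches is known. No paired analysis was possible because there is 1 library per group and the labels carry no replicate numbers. The 2041 higher genes became 3499 with a filter of 1 FPKM or none, and 1051 at 4-fold. The 528 lower became 921 with a filter of 1 FPKM or none, 326 at 10 FPKM, 293 with a pseudocount of 5, 1133 at 1.5-fold and 136 at 4-fold. The median of 0.26 became 0.44 at 1 FPKM, 0.16 at 10 FPKM, 0.00 with no filter and 0.061 under median-of-ratios scaling, which gave 1824 higher and 731 lower genes. The CPE difference of -0.64 became -0.90 for the whole 3' untranslated region and -0.52 with a pseudocount of 5. It moved less in the 8 other alternatives, all added after the data were seen. Of 51 list medians, 39 were above 0, and 31 under scaling. Apart from medians within 0.1 of 0, of which 4 turned under scaling, those that turned were CCR4-NOT and BTG (0.046, at 1 FPKM or no filter), nonsense-mediated decay (0.22 at 1 FPKM, 0.51 with no filter), small RNA pathway (-0.24 without genes listed at 0), RNA-binding decay adaptors (-0.10 at 1 FPKM, -0.12 at 10 FPKM, -0.028 scaled), histone variants and chaperones (-0.075 at 10 FPKM, -0.10 scaled), polyadenylation (-0.077 scaled) and meiotic arrest (-0.031 scaled). The cause was not tested.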

Other observations

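In the calcium and egg activation list 6 of 13 genes were higher in labelled Erk-/- MII and 1 lower (median 0.88), and in the egg surface list 4 of 9 were higher and 1 lower (median 0.37), against 32.3% higher over all genes. Camk2g, the kinase that carries the fertilization signal, had 5.73 FPKM in wild-type MII (4.93 to 6.55) and 37.9 in labelled Erk-/- (35.7 to 40.3), and the calcium channel gene Cacna1h 4.70 (4.21 to 5.20) and 17.0 (16.0 to 18.1). The calcium release receptor gene Itpr1 had 23.8 (22.6 to 24.8) and 28.2 (26.9 to 29.4). Cd9, required for sperm fusion, had 9.34 (6.73 to 10.8) and 101, and Folr4, the sperm receptor also known as Juno, 30.2 (26.9 to 33.6) and 122 (114 to 130). Gja4, the gap junction protein that joins oocyte and granulosa cells, had 366 FPKM (wild type) and 486 (Erk-/-) at GV, and 27.1 (22.5 to 28.5) and 111 at MII. Fbxo43, the inhibitor that keeps the MII egg arrested, was on the other side with 149 (140 to 150) and 97.2 (90.7 to 98.5).

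In the DNA methylation list 5 of 11 were higher and none lower (median 0.84). Dnmt3l, the cofactor that sets imprints during growth, had 28.0 FPKM in wild-type MII (25.3 to 30.7) and 131 in labelled Erk-/- (125 to 139), Uhrf1 159 (155 to 166) and 478 (472 to 494), and Dnmt1, the maintenance enzyme, 127 (125 to 132) and 229 (227 to 237). Oocyte transcription factors had 4 of 13 higher and none lower (median 0.21), close to the 32.3% and the median of 0.26 over all genes.
Lhx8, which drives oocyte growth, had 3.91 (2.94 to 4.86) and 44.7 (38.6 to 47.3) and Nobox 6.40 (4.98 to 7.78) and 36.5 (31.2 to 38.4), while the homeobox genes Obox1 (2519 and 1711) and Obox2 (3128 and 2100) were lower by less than 2-fold. The p53 and BCL2 list had 3 of 13 genes higher (23.1%, against 32.3% over all genes) and 1 lower (median -0.24). In it the 6 genes with a CPE had a median of -0.53 and the 7 without 0.84. Bax, which permeabilizes mitochondria, had 4.81 (2.84 to 6.39) and 30.4 (21.8 to 31.3), Birc5, of the chromosomal passenger complex, 197 (186 to 208) and 570 (554 to 595), and Casp9, the apoptosome protease, 10.8 (9.71 to 11.9) and 3.27 (2.71 to 3.83). Bax and Casp9 were apart the same way at GV. There Bax had 4.05 FPKM (wild type, 2.30 to 5.74) and 26.2 (Erk-/-, 18.2 to 26.3). Casp9 had 1.83 in wild-type GV and was listed at 0 in Erk-/- GV.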
